A study of Mus musculus with 20 samples.

Results

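The acute phase response genes described here are *Saa1*, *Saa2*, *Saa3*, *Orm1*, *Orm2*, *Lcn2*, *Hp*, *Hpx*, *Socs3* and *Il1r1*, 10 genes taken by name from the probe annotation of the array. Of these, 9 were measured by 10 single-gene probe sets (2 for *Socs3*) among the 20777 single-gene probe sets with values, and no single-gene probe set was found for *Il1r1*, the receptor for interleukin 1. Whole livers of untreated mice, 8 weeks old and on a mixed background (129Pas x C57Bl/J), were hybridized to Affymetrix Mouse Gene 1.0 ST arrays, 1 mouse per array and 20 in all. The groups were *Crem*-/- (KO) mice at 12 h, wild-type (WT) mice at 12 h, KO mice at 0 h and WT mice at 0 h, with 5 mice each, where 0 h is the onset of light and 12 h its end in a 12:12 h cycle. *Crem* encodes a transcription factor that responds to cyclic AMP. The labels do not give the sex.

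The acute phase response is the change in plasma proteins that the liver makes after infection or injury. Cytokines released by macrophages, chiefly interleukin 6 and interleukin 1, act on hepatocytes through STAT3, NF-kB and C/EBP factors, and glucocorticoids enhance the induction. The strongest responders, the serum amyloid A proteins, can change over several orders of magnitude, whereas abundant carriers such as haptoglobin are made at high rates even in a healthy liver.

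The 12 h livers all carry batch label 5 and the 0 h livers batch labels 1 to 4, each of which holds both genotypes, so the time points and the batches cannot be told apart. The median log2 value of an array was 7.13 to 7.17 in KO and 7.07 to 7.15 in WT livers at 12 h, and 7.19 to 7.23 in KO and 7.18 to 7.24 in WT livers at 0 h. *Crem*, the deleted gene, was lower in KO than in WT livers, with 7.60 ± 0.17 against 7.97 ± 0.06 at 12 h and 7.85 ± 0.30 against 8.32 ± 0.17 at 0 h (log2 level, SD, n = 5 each, exact permutation p = 0.00794 and 0.0159). At 0 h the liver labelled KO mouse 1 had the highest *Crem* level of the KO livers (8.17), inside the WT range of 8.11 to 8.54. It is called KO mouse 1 by its label, and results that rest on it are given with and without it. Without it the *Crem* difference at 0 h was -0.56, against -0.48 with it. In the limma test used for the members below, *Crem* was not called for genotype either. Its limma adjusted p was 0.190 at 12 h, 0.987 at 0 h and 0.136 over both times. The sources used here do not say whether the *Crem* probe set lies in the deleted part of the gene. The array least like the other 4 of its group was that of WT mouse 80 at 0 h (mean correlation 0.987). Of the hepatocyte genes, *Alb*, the albumin gene, averaged 14.29 and *Ttr* 14.07 on the log2 scale, and the 12 neutrophil markers had similar low levels in all groups (list mean 5.67 to 5.86 in KO and 5.64 to 5.83 in WT livers at 12 h, 5.73 to 5.89 in KO and 5.73 to 5.87 in WT livers at 0 h). These are whole livers, so fewer cells of a type and less RNA per cell cannot be told apart.

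RefSeq promoters (GRCm38.p6) were found for 8 of the 10 genes, *Orm1* and *Hp* not among them. The 250 bases before the transcript start are shown for the *Saa* genes and *Orm2*, because *Saa1*, *Saa2* and *Orm2* varied together between mice in the values below, while *Saa3*, a relative of *Saa1* and *Saa2*, did so less. Capitals mark the letters TTGCNNAA, read on both strands like the others below, a core of sites for the C/EBP factors, and the sequences run 5′ to 3′ on the strand of the gene (chr7:46742981-46743230, minus strand, for *Saa1*, chr7:46751583-46751832, plus strand, for *Saa2*, chr7:46715677-46715926, minus strand, for *Saa3* and chr4:63362199-63362448, plus strand, for *Orm2*).
Saa1: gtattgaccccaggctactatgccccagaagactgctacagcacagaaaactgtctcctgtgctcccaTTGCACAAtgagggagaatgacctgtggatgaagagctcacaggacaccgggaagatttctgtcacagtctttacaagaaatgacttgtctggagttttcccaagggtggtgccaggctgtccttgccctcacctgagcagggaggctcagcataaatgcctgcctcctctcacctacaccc
Saa2: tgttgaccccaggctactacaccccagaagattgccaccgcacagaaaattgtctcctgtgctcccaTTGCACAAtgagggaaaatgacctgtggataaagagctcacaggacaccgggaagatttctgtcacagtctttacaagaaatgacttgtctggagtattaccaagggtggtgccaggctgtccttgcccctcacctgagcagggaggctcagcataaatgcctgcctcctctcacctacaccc
Saa3: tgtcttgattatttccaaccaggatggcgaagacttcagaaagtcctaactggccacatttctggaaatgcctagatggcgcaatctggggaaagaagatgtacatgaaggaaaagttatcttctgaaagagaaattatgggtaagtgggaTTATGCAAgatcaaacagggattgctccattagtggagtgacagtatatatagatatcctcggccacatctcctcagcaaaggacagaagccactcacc
Orm2: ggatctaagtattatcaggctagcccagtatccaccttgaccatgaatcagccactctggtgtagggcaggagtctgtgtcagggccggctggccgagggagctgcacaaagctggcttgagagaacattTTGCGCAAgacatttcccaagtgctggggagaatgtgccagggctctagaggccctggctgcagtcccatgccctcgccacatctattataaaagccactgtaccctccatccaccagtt
The windows of *Saa1* and *Saa2* were identical at 238 of 249 aligned bases (95.6%), against 56.0% between *Saa1* and *Saa3*. The letters TTGCNNAA were present in 6 of the 7 windows of measured genes (*Saa1*, *Saa2*, *Saa3*, *Orm2*, *Lcn2* and *Hpx*), against 9.56% of all 32851 windows of this length, and *Saa1* and *Saa2* hold the same 8 letters, ending 175 and 176 bases before the start. Letters for STAT factors (TTCNNNGAA, 7.02% of windows) were found in *Socs3* alone and letters for the glucocorticoid receptor (ACANNNTGT, 5.84%) in *Lcn2* alone. Neither the full cyclic AMP response element (TGACGTCA, 1.55%), nor its core TGACG (17.8%), nor the NF-kB motif (1.41%), the E-box (CACGTG, 6.02%) or the D-box (TTATGTAA, 0.819%) were found in any of the 7. TGACG lies within TGACGTCA. A match is a string of letters in this window and was not tested as a binding site. Sites that differ from these letters, or lie outside the window, are missed, so no match does not mean no site. On chromosome 7 *Saa1* lies between *Saa4* and *Saa2*, and on chromosome 4 *Orm3* lies between *Orm1* and *Orm2*. Probes of such close copies may take up transcripts of one another, so the *Saa1* and *Saa2* values, and those of the *Orm* genes, are uncertain to that extent.

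None of the 9 measured genes passed the test for genotype, yet *Saa2* had one of the largest differences on the array. Over both times its level was higher in KO livers by 1.17 on the log2 scale (SE 0.37, 2.24-fold, 95% interval 0.40 to 1.93, limma adjusted p = 0.333), the second highest log2 fold change of 25689 probe sets. By the same ranking *Saa1* was at 10, *Lcn2* at 17 and *Orm2* at 43, and all of these genes varied widely between mice of 1 group (below). No member was called by limma at an adjusted p under 0.05 at 12 h (0.0234% of all probe sets called), at 0 h (0%), over both times (0.0117%) or for the difference between the times (0%). At an unadjusted p under 0.05 the members were *Saa2*, *Hpx* and *Socs3* at 12 h (3 of 9, against 12.5% of all probe sets), *Saa2* at 0 h (1 of 9, against 4.47%), *Saa2* and *Hpx* over both times (2 of 9, against 9.88%) and 0 for the difference between the times (6.84%). The median difference of the 9 genes over both times was 0.23, against 0.002 for all probe sets, and all 9 were above 0. Without KO mouse 110 and KO mouse 1 this median was 0.04 and 8 of 9 were above 0.

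**Figure D1:**
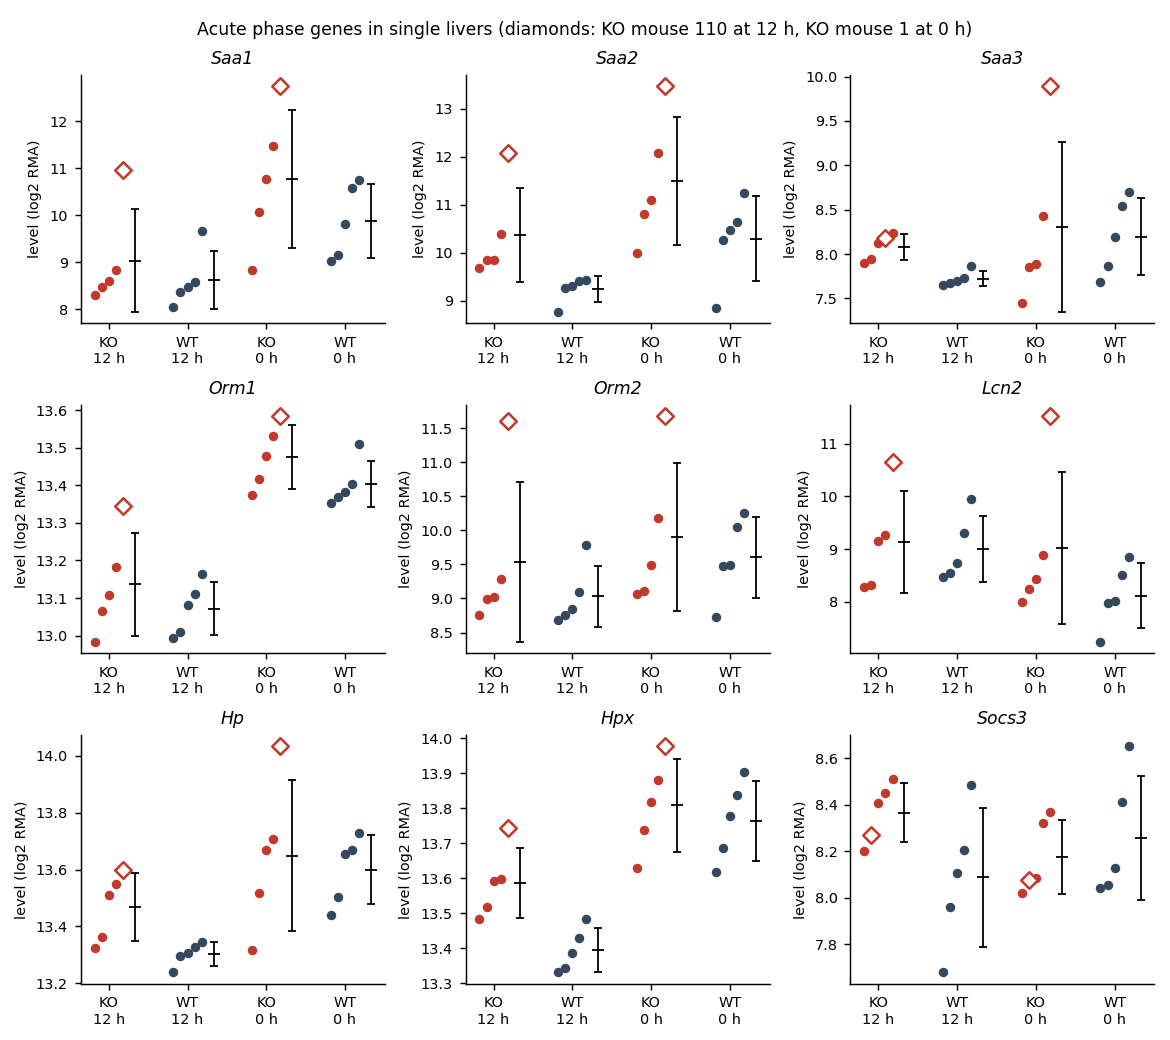
Log2 RMA level of the 9 measured genes in single livers, with KO left of WT at 12 h and at 0 h (5 mice per group, 1 point per mouse, bars are mean ± SD, and each panel has its own axis). Open diamonds mark KO mouse 110 and KO mouse 1, which lay at 12.06 and 13.47 for *Saa2*, above the other 4 livers of their groups.

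*Saa1* and *Saa2* encode the main inducible serum amyloid A proteins, which travel on high-density lipoprotein. At 12 h *Saa2* had log2 levels of 9.85, 10.39, 9.68, 12.06 and 9.85 in KO mice 18, 55, 109, 110 and 166, against 9.27, 9.42, 9.40, 9.31 and 8.76 in WT mice 111, 167, 168, 169 and 170. Every KO liver lay above every WT liver at 12 h, and the WT livers were close together apart from mouse 170. At 0 h the levels were 13.47, 11.10, 12.07, 10.80 and 9.99 in KO mice 1, 76, 77, 143 and 144, against 10.63, 8.84, 10.47, 10.26 and 11.24 in WT mice 78, 80, 145, 146 and 147, and the groups overlapped. The means at 12 h were 10.37 ± 0.99 in KO and 9.23 ± 0.27 in WT livers (SD, n = 5 each), which differ by 1.13 (two-sided exact permutation p = 0.00794, the lowest value possible with 5 mice per genotype). At 0 h the difference was 1.20 (two-sided exact permutation p = 0.151), and with both times permuted together it had p = 0.00624. Within batches 1, 2, 3 and 4 at 0 h the KO minus WT differences of *Saa2* were 1.17, 2.84, 0.34 and -0.14, with 1 mouse of each genotype in batches 2 and 4 and KO mouse 1 in batch 2. Without KO mouse 110 the groups at 12 h stayed apart, with a difference of 0.71 (two-sided exact permutation p = 0.00794), and without KO mouse 1 the difference at 0 h was 0.70 (p = 0.31). With both mice left out the difference over both times was 0.71 (exact permutation p = 0.0261).

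*Saa1* did not separate the genotypes. At 12 h its levels were 8.47, 8.83, 8.31, 10.95 and 8.60 in KO livers, against 8.05, 8.36, 9.68, 8.59 and 8.48 in WT livers, in the order of mice given above. At 0 h they were 12.75, 10.76, 11.46, 10.08 and 8.84 in KO livers, against 10.58, 9.04, 9.82, 9.16 and 10.75 in WT livers. At both times the highest liver was a KO liver, mouse 110 and mouse 1, and the rest overlapped widely. The difference was 0.40 at 12 h (exact permutation p = 0.54) and 0.91 at 0 h (p = 0.27), and without those mice it was -0.08 at 12 h and 0.42 at 0 h. *Saa3*, which in mice is made largely by macrophages and other cells outside the hepatocyte, had levels of 8.24, 7.95, 8.13, 8.18 and 7.90 in KO and 7.65, 7.68, 7.70, 7.87 and 7.72 in WT livers at 12 h. All 5 KO livers lay above all 5 WT livers, and the means differed by 0.35 (two-sided exact permutation p = 0.00794, limma adjusted p = 0.662). At 0 h its levels were 9.90, 7.45, 8.43, 7.85 and 7.89 in KO and 8.20, 7.69, 8.54, 8.70 and 7.87 in WT livers, with KO mouse 1 highest and the groups overlapping (difference 0.11, exact permutation p = 0.881).

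Groups that did not overlap, with KO above WT, were found for 3 of the 9 genes at 12 h (*Saa2*, *Saa3* and *Hpx*), against 1.18% of all probe sets, and for 0 of 9 at 0 h, against 0.343%. Of the 27 exact tests (9 genes at 12 h, at 0 h and over both times), 6 gave p under 0.05 before any adjustment. The tests over both times reuse the mice of the single times, and several members vary together, so the 27 are not independent. The exact test was not run on all probe sets, so this count has no share to be set against. By limma 12.5% of all probe sets had an unadjusted p under 0.05 at 12 h. The limma model shares 1 estimate of the spread over the 4 groups, and *Saa2* and *Saa3* varied more at 0 h (SD 1.34 in KO and 0.89 in WT livers for *Saa2*) than at 12 h (0.99 in KO and 0.27 in WT livers). Fitted on only the 12 h arrays, limma called 0 of 25689 probe sets for genotype.

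*Hpx*, *Hp* and *Orm1* encode carriers in plasma, and their genotype differences were below 0.2 on the log2 scale. *Hpx* encodes hemopexin, which clears free haem, and had levels of 13.48, 13.59, 13.52, 13.74 and 13.60 in KO and 13.43, 13.39, 13.34, 13.48 and 13.33 in WT livers at 12 h. The groups only just failed to meet, at 13.4849 for the lowest KO and 13.4845 for the highest WT liver, and the difference was 0.19 (SE 0.07, two-sided exact permutation p = 0.00794, limma adjusted p = 0.292). *Hp* encodes haptoglobin, which binds free hemoglobin, and at 12 h had levels of 13.32, 13.55, 13.36, 13.60 and 13.51 in KO and 13.30, 13.30, 13.35, 13.33 and 13.24 in WT livers. Here the groups overlapped slightly, with means of 13.47 ± 0.12 in KO and 13.30 ± 0.04 in WT livers (SD, n = 5 each, difference 0.17, exact permutation p = 0.0238). Without KO mouse 110 the *Hpx* difference at 12 h was 0.15 (exact permutation p = 0.0159). At 0 h the differences were 0.04 for *Hpx* and 0.05 for *Hp*, with exact permutation p = 0.587 and p = 0.722. *Orm1*, one of the genes for alpha-1-acid glycoprotein, differed by 0.07 at 12 h and 0.07 at 0 h, with 95% intervals of -0.08 to 0.21 and -0.07 to 0.22.

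*Socs3* encodes the feedback inhibitor of interleukin 6 signalling. Its brighter probe set averaged 8.37 ± 0.13 in KO and 8.09 ± 0.30 in WT livers at 12 h (difference 0.28, exact permutation p = 0.0873) and 8.18 ± 0.16 in KO and 8.26 ± 0.27 in WT livers at 0 h (difference -0.08, p = 0.508; SD, n = 5 each). The other probe set gave differences of 0.06 at 12 h and 0.03 at 0 h, so the 2 probe sets did not have the same sign at 0 h.

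**Figure D2:**
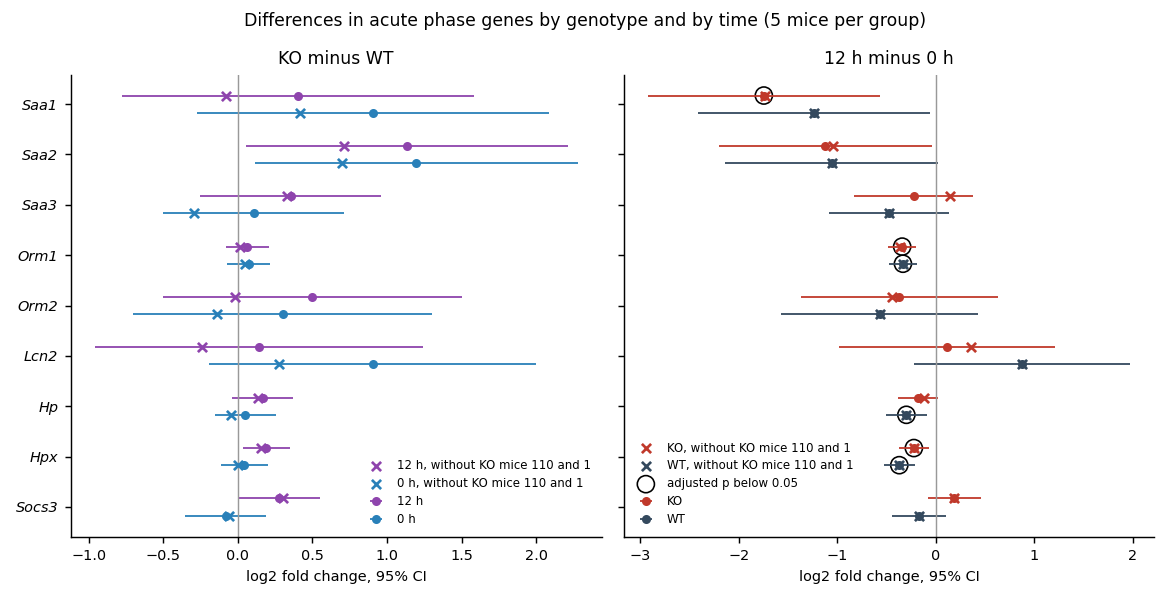
Log2 fold changes of the 9 genes with 95% confidence intervals from limma, KO minus WT on the left (12 h above 0 h) and 12 h minus 0 h on the right (KO above WT). Crosses give the value without KO mouse 110 and KO mouse 1, black rings an adjusted p under 0.05, which is reached only for time, by *Saa1*, *Orm1* and *Hpx* in KO and by *Orm1*, *Hp* and *Hpx* in WT livers.

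Of the 9 members, the inducible *Saa* genes, *Orm2* and *Lcn2* differed far more between mice of 1 group than most genes. The within-group SD of *Saa1* was 1.04 on the log2 scale, rank 14 from the highest of 25689 probe sets, against a median of 0.157 over all of them. *Lcn2* (0.97) ranked 20, *Saa2* (0.95) ranked 22, *Orm2* (0.88) ranked 25 and *Saa3* (0.53) ranked 142. By contrast *Orm1* (0.09) and *Hpx* (0.11) lay below the median and *Hp* (0.16) close to it, and *Socs3* (0.22) ranked 3675. *Orm1*, *Hp* and *Hpx* were also the brightest members, with mean log2 levels of 13.27, 13.50 and 13.64. Whether such high signals limit the spread and the differences seen on the array was not tested.

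Single mice carried much of this spread. *Lcn2* encodes lipocalin 2, which binds bacterial siderophores, and at 0 h had levels of 11.52, 8.00, 8.90, 8.25 and 8.44 in KO and 8.50, 7.24, 7.98, 8.02 and 8.85 in WT livers. KO mouse 1 was 8.73-fold above the geometric mean of the other 4 KO livers. At 12 h the levels were 8.32, 9.16, 8.29, 10.65 and 9.27 in KO and 8.46, 8.54, 9.30, 8.73 and 9.95 in WT livers, with KO mouse 110 3.70-fold above the other 4. *Orm2*, a close relative of *Orm1*, had levels of 8.99, 9.29, 8.76, 11.61 and 9.01 in KO and 8.68, 8.76, 9.78, 8.85 and 9.09 in WT livers at 12 h. KO mouse 110 again stood 6.03-fold above the other 4 KO livers, which lay among the WT livers. At 0 h the *Orm2* levels were 11.68, 9.11, 10.18, 9.50 and 9.06 in KO and 9.50, 8.73, 10.06, 9.47 and 10.26 in WT livers, with KO mouse 1 4.65-fold above the other 4. For *Saa1* these folds were 5.26 for mouse 110 and 5.51 for mouse 1, and for *Saa2* 4.36 and 5.59. A low liver was that of KO mouse 144 at 0 h, the lowest of its group in 5 of 9 genes. For *Saa1* it was at -1.94 from the group mean, against 1.97 for mouse 1.

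KO mouse 110 was the highest of its group in 7 of the 9 genes and KO mouse 1 in 8 of 9, the exceptions being *Saa3* and *Socs3* for mouse 110 and *Socs3* for mouse 1. Among WT livers, mouse 168 was highest in 4 of 9 at 12 h and mouse 147 in 6 of 9 at 0 h, and mouse 80 was lowest in 7 of 9 at 0 h. Both KO mice also had the highest mean of the 8 Kupffer cell markers in their groups (9.40 for mouse 110, in a group from 9.04 up, and 9.65 for mouse 1, in a group from 9.19 up). Single markers did not all follow these means. Both mice were highest for *Clec4f*, mouse 110 also for *Adgre1* and mouse 1 also for *Marco*. For *Marco* mouse 110 was at 7.01, below mouse 109 at 7.27, and for *Adgre1* mouse 1 was at 8.92, below mouse 76 at 9.01. KO mice 110 and 1 had the highest mean of the 26 other positive acute phase proteins as well (11.14 and 11.41). Their means of the 12 neutrophil markers were not the highest, being the lowest of the group for mouse 110 (5.67) and the middle one for mouse 1 (5.86). Here too single markers did not all follow, as mouse 1 was highest of its group for *S100a8* (5.89). For *S100a9* it was at 6.60, below mouse 77 at 6.82. The neutrophil means lay below the median values of the arrays (7.07 to 7.24), so small differences between them carry little weight. Both were also highest of their groups for the mean of 15 glucocorticoid receptor targets (10.17 for mouse 110 and 9.38 for mouse 1) and of 16 NF-kB and C/EBP factors (9.03 and 9.06). In other lists they did not both lead. For JAK-STAT and SOCS genes mouse 1 was in rank 1 and mouse 110 in rank 4 of 5. For receptors and adaptors of interleukin 1, interleukin 6 and TNF mouse 110 was in rank 1 and mouse 1 in rank 3. Both were in rank 3 for genes of haem and iron scavenging. For negative acute phase proteins mouse 110 was in rank 3 and mouse 1 in rank 5. The part of the Kupffer cell markers in the acute phase levels was not tested.

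Several genotype differences turned with these mice, but that of *Saa2* did not. Without KO mouse 110 the difference at 12 h was -0.02 for *Orm2* and -0.24 for *Lcn2*, against 0.50 and 0.14 with it. Without KO mouse 1 the difference at 0 h was -0.14 for *Orm2*, 0.28 for *Lcn2* and -0.29 for *Saa3*, against 0.30, 0.90 and 0.11 with it.

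The inducible genes varied together. Over the 20 mice, with each value taken relative to its group mean, *Saa1* correlated with *Saa2* (Pearson r = 0.911, Spearman rho = 0.859, permutation p = 2e-05 and 3e-05) and with *Orm2* (r = 0.890, rho = 0.817, p = 8e-05 and 6e-05). It also correlated with *Lcn2* (r = 0.793, rho = 0.693, permutation p = 0.00086 and 0.0019) and with the steady *Orm1* (r = 0.778, rho = 0.758, p = 0.00018 and 0.00025). For *Hpx* r was 0.620 and rho 0.615 (permutation p = 0.017 and 0.015), and for *Hp* 0.615 and 0.681 (p = 0.038 and 0.0069). *Saa3* (r = 0.487, rho = 0.302, permutation p = 0.15 and 0.27) and *Socs3* (r = -0.28, rho = -0.20, p = 0.18 and 0.42) did not pass. With other members *Saa3* had r of 0.717 for *Hp*, 0.669 for *Lcn2*, 0.632 for *Saa2* and 0.613 for *Orm2*. It had 0.434 for *Hpx*, 0.247 for *Orm1* and -0.205 for *Socs3*. These r include KO mice 110 and 1 and were not tested. Adjusted over the 8 pairs, the p-values of r were 0.00016 for *Saa2*, 0.00032 for *Orm2*, 0.00048 for *Orm1*, 0.0017 for *Lcn2*, 0.027 for *Hpx* and 0.051 for *Hp*, and those of rho were 0.00024 for *Saa2* and *Orm2*, 0.00067 for *Orm1*, 0.0038 for *Lcn2*, 0.011 for *Hp* and 0.02 for *Hpx*. The 2 mice farthest from the median *Saa1* value were KO mice 110 and 1. Without them r was 0.799 for *Saa2*, 0.749 for *Orm2*, 0.593 for *Orm1* and 0.514 for *Lcn2* (adjusted permutation p = 0.0088, 0.016, 0.027 and 0.068), and 0.294 for *Hp* and 0.321 for *Hpx* (both adjusted p = 0.46). The rho values left were 0.732 for *Saa2*, 0.711 for *Orm2*, 0.581 for *Orm1*, 0.569 for *Lcn2*, 0.441 for *Hp* and 0.412 for *Hpx*. Without those mice r with *Lcn2* thus missed the adjusted threshold narrowly (unadjusted permutation p = 0.034), and r with *Hp* and *Hpx* did not pass.

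**Figure D3:**
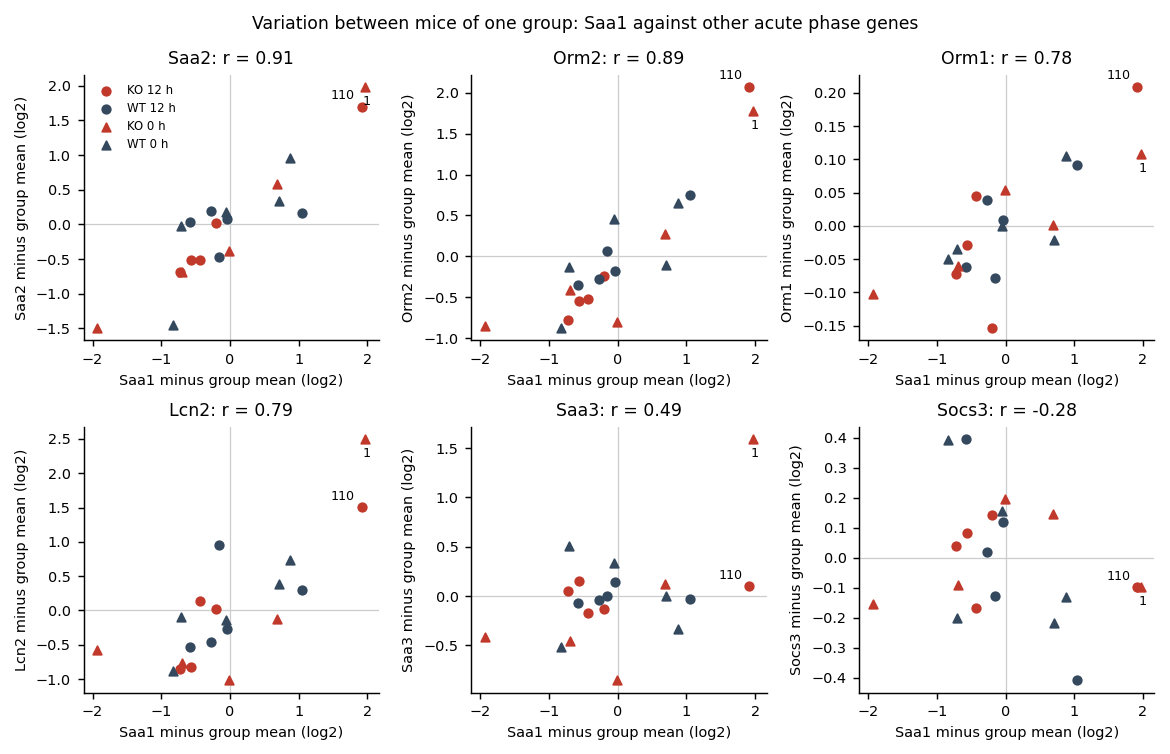
Level of 6 genes against that of *Saa1* in 20 livers, both as log2 differences from the mean of the mouse's own group (KO and WT in red and blue, 12 h as circles, 0 h as triangles). KO mice 110 and 1 lie at the upper right for *Saa2*, *Orm2*, *Orm1* and *Lcn2*, and r ran between 0.911 for *Saa2* and -0.28 for *Socs3*.

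Among all single-gene probe sets, those whose values relative to the group means were most like *Saa1* over the 20 mice were *Saa2* (r = 0.911), *Orm2* (0.890), *Ero1b* (0.822), *Prelid1* (0.819), *Atp2a2* (0.818), *Rgs5* (0.816), *Sec11a* (0.811) and *Lcn2* (0.793). *Ero1b* encodes an oxidase of the endoplasmic reticulum, *Atp2a2* its calcium pump and *Sec11a* a subunit of the signal peptidase. *Prelid1* encodes a lipid transfer protein of mitochondria and *Rgs5* a regulator of G protein signalling. Their within-group SD was far smaller than that of *Saa1*, with 0.21 for *Ero1b*, 0.13 for *Atp2a2* and 0.06 for *Sec11a*. Without KO mice 110 and 1 r was 0.716 for *Ero1b*, 0.701 for *Atp2a2* and 0.564 for *Sec11a*. Of the other members, *Orm1* ranked 11, *Hpx* 138, *Hp* 149 and *Saa3* 608 of 20776 by r with *Saa1*. These ranks are descriptions, since each r was picked among all probe sets.

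With time, *Orm1* and *Hpx* were lower at 12 h than at 0 h in both genotypes. In KO livers *Saa1*, *Orm1* and *Hpx* fell, 3 of 9 members, against 20.3% of all probe sets called and 9.69% called lower. In WT livers *Orm1*, *Hp* and *Hpx* fell, again 3 of 9, against 27.8% called and 14.3% called lower. No member rose in either. The median of the members was -0.22 in KO and -0.37 in WT livers, against -0.02 and -0.03 for all probe sets.

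*Orm1* had levels of 13.11, 12.98, 13.06, 13.35 and 13.18 at 12 h, against 13.58, 13.53, 13.48, 13.42 and 13.37 at 0 h in KO livers. In WT livers it had 13.01, 13.11, 13.16, 13.08 and 12.99 at 12 h, against 13.38, 13.35, 13.40, 13.37 and 13.51 at 0 h. In both genotypes every liver at 12 h lay below every liver at 0 h, with a change of -0.34 in KO (SE 0.07, limma adjusted p = 0.00115) and of -0.33 in WT livers (SE 0.07, adjusted p = 0.00125). *Hpx* had levels of 13.48, 13.59, 13.52, 13.74 and 13.60 at 12 h, against 13.98, 13.63, 13.88, 13.74 and 13.82 at 0 h in KO livers, where the times overlapped. In WT livers it had 13.43, 13.39, 13.34, 13.48 and 13.33 at 12 h, against 13.84, 13.69, 13.78, 13.62 and 13.90 at 0 h, with no overlap. *Hpx* fell by 0.22 in KO (SE 0.07, limma adjusted p = 0.0396) and by 0.37 in WT livers (SE 0.07, adjusted p = 0.000916). *Hp* fell by 0.30 in WT livers (SE 0.10, limma adjusted p = 0.0284) and had a difference of -0.18 in KO livers (adjusted p = 0.213). Levels at 12 h that all lay below those at 0 h were found for *Orm1* alone in KO livers (7.49% of all probe sets) and for *Orm1*, *Hp* and *Hpx* in WT livers (8.33%). *Saa1* fell by 1.74 in KO livers (SE 0.57, 3.35-fold lower, limma adjusted p = 0.0328), and its difference in WT livers was -1.24 (SE 0.57, adjusted p = 0.109). The *Saa1* call was lost with only the arrays compared or with a robust prior. The array medians were lower at 12 h as well, and with each array centred on its median the *Hpx* change in KO livers (-0.16) and the *Hp* change in WT livers (-0.21) no longer passed. The change with time did not differ between KO and WT livers beyond the limma threshold for any member. *Saa2* had differences of -1.12 in KO and -1.06 in WT livers (limma adjusted p = 0.138 and 0.135), *Orm2* -0.37 and -0.57, *Saa3* -0.22 and -0.47, and *Lcn2* 0.12 and 0.88, none of which passed.

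The calls in time moved with single mice. Leaving out 1 mouse in turn left between 1 and 4 members called in KO livers. *Orm1* alone was called without KO mouse 18, 55, 109 or 166 at 12 h or KO mouse 1 or 77 at 0 h, the *Saa1* call was also lost without KO mouse 76, and the *Hpx* call without KO mouse 144. In WT livers between 2 and 4 members were called, and the *Hp* call was lost without WT mouse 170 at 12 h or WT mouse 78, 145 or 147 at 0 h. Without KO mouse 110 or KO mouse 144 *Saa2* was called in KO livers, and in WT livers *Saa2* was called without WT mouse 80 and *Saa3* without KO mouse 1. Without both KO mice 110 and 1, whose spread enters the shared estimate, 2 members were called in KO livers (*Saa1* and *Orm1*) and 7 in WT livers, with *Saa1*, *Saa2*, *Saa3*, *Orm1*, *Hp* and *Hpx* lower and *Lcn2* higher at 12 h.

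Other genes of the response were mostly lower at 12 h too, with 21 of 26 differences below 0 in KO and 18 of 26 in WT livers. Of 26 measured genes for other positive acute phase proteins, 0 rose and 10 fell in KO livers, and 2 rose and 12 fell in WT livers (medians -0.21 and -0.24). These falls are 38.5% of the list in KO and 46.2% in WT livers, against 9.69% and 14.3% of all probe sets called lower. Of all probe sets 55.0% had differences below 0 in KO and 54.7% in WT livers. Both genotypes had lower levels of *Apcs*, which encodes serum amyloid P (-1.13 in KO and -1.07 in WT livers), of *Fga*, the fibrinogen alpha chain (-0.97 and -0.60), of *Mbl1*, a mannose-binding lectin (-0.90 and -0.88), and of *Tfpi2*, a protease inhibitor (-1.32 and -0.84), all with limma adjusted p between 1.32e-08 and 0.014. The 2 that rose in WT livers were the metallothioneins *Mt1* (1.94) and *Mt2* (1.97), whose differences in KO livers were 0.81 and 0.97 (limma adjusted p = 0.154 and 0.161). Of 15 genes for negative acute phase proteins, which are made less in inflammation, 2 rose and 2 fell in each genotype (13.3% each way), *Cyp7a1* and *Serpina6* upward in both. These counts lay near the shares of all probe sets, with 10.6% called higher and 9.69% lower in KO and 13.5% and 14.3% in WT livers.

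Genes for signals and factors upstream of these are counted against the shares of all probe sets, of which 10.6% were called higher and 9.69% lower at 12 h in KO livers, and 13.5% higher and 14.3% lower in WT livers. With each array centred on its median these shares were 14.3% higher and 6.24% lower in KO and 20.6% higher and 7.77% lower in WT livers. The list counts that follow were made without this centring. With it, 31.2% of the NF-kB and C/EBP factors were called higher in KO and 50% in WT livers. The JAK-STAT and SOCS genes then had 30% called higher in both, and the receptors and adaptors below 27.3% in both. With quantile normalization on top, 4 JAK-STAT and SOCS genes rose (20%) and 3 fell (15%) in WT livers. All probe sets then had 11.4% called higher and 12.1% lower. Of 16 NF-kB and C/EBP factors, 4 rose (25%) and 0 fell in KO livers and 7 rose (43.8%) and 0 fell in WT livers, with *Cebpb* higher by 0.43 in KO and 0.78 in WT livers. Of 20 JAK-STAT and SOCS genes, 6 rose (30%) and 1 fell in KO and 5 rose (25%) and 1 fell in WT livers, and *Stat3* itself had differences of 0.02 and 0.04. Of 22 receptors and adaptors for interleukin 1, interleukin 6 and TNF, 5 rose (22.7%) and 3 fell (13.6%) in each genotype, the falls being close to the share of all probe sets in WT livers. *Il6ra*, the interleukin 6 receptor, was higher by 1.47 in KO and 1.53 in WT livers (limma adjusted p = 1.51e-08 and 8.54e-09). Of 15 targets of the glucocorticoid receptor, 9 rose in KO livers (60.0%, median of the list 0.48) and 13 in WT livers (86.7%, median 1.03), with *Fkbp5* higher by 2.00 and 2.27 and *Per1* by 1.86 and 2.02. Of 14 genes for hemoglobin, haem and iron scavenging, 5 rose (35.7%) and 2 fell (14.3%) in KO and 6 rose (42.9%) and 2 fell (14.3%) in WT livers, the last being the same share as over all probe sets. None of these lists held a gene called for genotype.

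Of the 8 Kupffer cell markers, 2 fell in KO livers (25%, against 9.69% of all probe sets) and 5 in WT livers (62.5%, against 14.3%), with medians of -0.21 and -0.42. With each array centred on its median 1 fell in KO and 4 in WT livers. Their list mean ranged over 9.04 to 9.40 at 12 h and 9.19 to 9.65 at 0 h in KO livers, and over 8.92 to 9.30 at 12 h and 9.34 to 9.69 at 0 h in WT livers. Of the 12 neutrophil markers 0 were called in either genotype, and of 6 hepatocyte markers 1 rose in each. The part of Kupffer cells in the time differences of the acute phase genes was not tested.

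**Figure D4:**
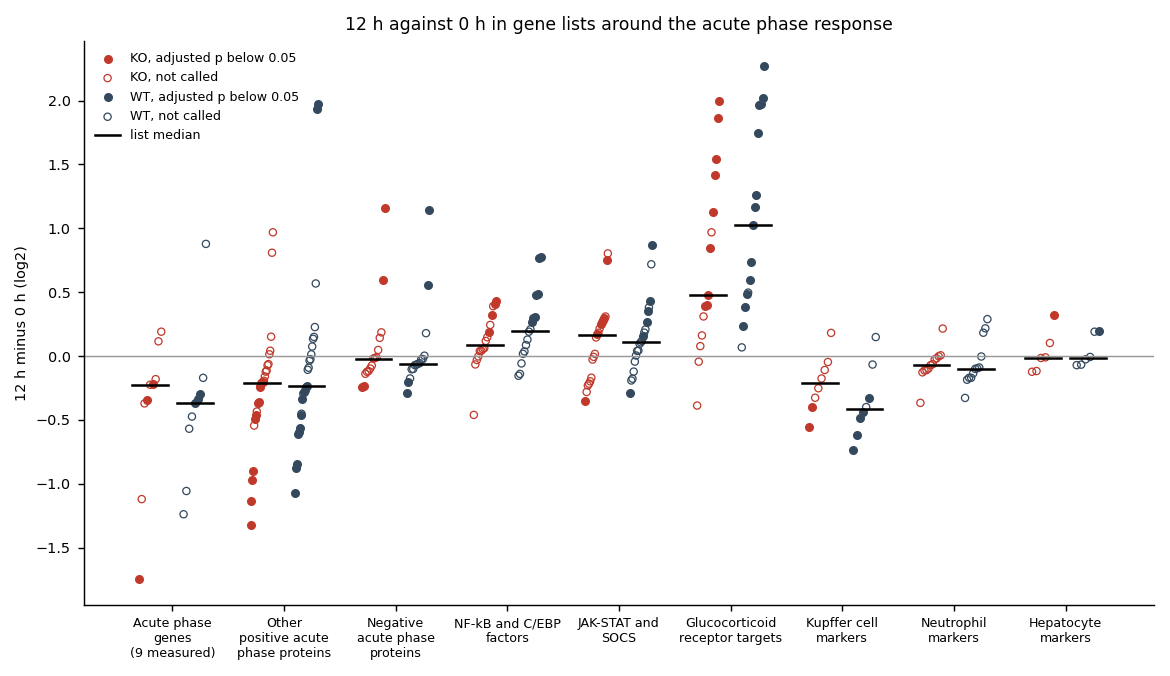
Log2 difference of 12 h minus 0 h for each measured gene of 9 lists, KO (red) left of WT (blue), filled where the limma adjusted p is under 0.05, with a black line at the list median. The 9 acute phase genes and the other positive acute phase proteins have medians below 0 (-0.22 and -0.21 in KO, -0.37 and -0.24 in WT livers), and the glucocorticoid receptor targets above 0 (0.48 in KO and 1.03 in WT livers).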

How the data were processed

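RNA of 20 whole livers was measured on 1 array each. The table the authors deposited holds log2 RMA values for each probe set (no version is given in the submitters' processing notes), so background correction and quantile normalization had been done and the signal over background is unknown. Of 35557 probe sets, 9868 were empty on every array and 25689 were tested without a filter. The platform's annotation gave 1 gene for 20777 of these, several for 232 and none for 4680. The brighter probe set stood for *Socs3*. The 10 genes, the lists and the tests were chosen with earlier results of these data known.

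A model of 4 group means over 20 arrays was fitted with limma (3.58.1, R 4.3.3, lmFit and eBayes), with Benjamini-Hochberg adjustment over all 25689 probe sets, calls at an adjusted p under 0.05 and intervals at 95%. For single genes, all 252 regroupings of 5 against 5 mice were enumerated. Correlations with *Saa1* used values minus group means and 1e+05 permutations within groups (SciPy 1.17.1). Named are the 10 members, *Crem*, up to 4 called genes of a list and direction, and the 8 genes most like *Saa1*. Marker genes, *Stat3*, and *Mt1* and *Mt2* in KO livers were named with their values known. Alternatives were batch as a block (random for time, correlation 0.0286), only the arrays compared, only the brighter probe sets, quantile normalization, median centring, array weights, a robust prior that follows intensity, the other *Socs3* probe set and each mouse left out. The setting without KO mice 110 and 1 together was added after seeing the data. Precision is limited by the number of arrays, and the p-values for genotype and time set a difference against the spread between these mice. For time, that difference also holds any difference between batch 5 and batches 1 to 4.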

Additional observations from a re-analysis of the deposited data

Results flagged for a closer look

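In each group of 5 mice the gap between the highest or lowest liver and its nearest neighbour was set against the group's whole range, for 10 probe sets in 4 groups. Of these 40 groups, 4 had a gap above the 95% critical value of 0.71, where chance gives about 2. *Saa1* was 10.95 in KO mouse 110 at 12 h, with the other 4 between 8.31 and 8.83. *Orm2* was 11.61 in the same liver, with the others between 8.76 and 9.29. *Lcn2* was 11.52 in KO mouse 1 at 0 h, with the others between 8.00 and 8.90. *Saa2* was 8.76 in WT mouse 170 at 12 h, below the others at 9.27 to 9.42. No difference in the genotype effect between 12 h and 0 h passed the limma test for any member.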

How the results depend on the processing

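No member was called for genotype under any alternative run. *Orm1* in both genotypes and *Hpx* in WT livers passed for time under every alternative run. None of these runs, batch as a random block included, can separate time from batch, because all 12 h livers carry batch label 5. The *Hpx* call in KO livers was lost with batch as a random block, with quantile normalization, with median centring and without KO mice 110 and 1 together, the *Hp* call in WT livers with quantile normalization and median centring, and the *Saa1* call in KO livers with the robust prior. Fitted on only the arrays compared, 1 member (*Orm1*) was called for time in KO and 5 in WT livers (*Saa1*, *Saa2*, *Orm1*, *Hp* and *Hpx*). Without KO mice 110 and 1 together, 7 were called for time in WT livers. By the other *Socs3* probe set the difference was 0.027 for genotype at 0 h and -0.16 for time in KO livers, both of opposite sign. Without KO mice 110 and 1, the sign turned for genotype at 12 h in *Saa1* (-0.077, exact permutation p = 0.889), *Orm2* (-0.019, p = 0.944) and *Lcn2* (-0.24, p = 0.571), at 0 h in *Saa3* (-0.29, p = 0.317), *Orm2* (-0.14, p = 0.706) and *Hp* (-0.047, p = 0.659), over both times in *Orm2* (-0.080, p = 0.715) and for time in KO livers in *Saa3* (0.15). The *Hpx* difference over both times was then 0.078 (exact permutation p = 0.108), and r with *Saa1* was 0.51 for *Lcn2* and 0.32 for *Hpx*. The cause was not tested, beyond those mice being left out.

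Leaving out each mouse in turn gave 1 to 4 members called for time in KO livers. Signs turned within -0.077 to 0.66 for *Saa1*, -0.019 to 0.69 for *Orm2* and -0.24 to 0.38 for *Lcn2* for genotype at 12 h, within -0.29 to 0.32 for *Saa3*, -0.14 to 0.51 for *Orm2*, -0.047 to 0.13 for *Hp* and -0.14 to 0.016 for *Socs3* at 0 h, and within -0.44 to 0.17 for *Saa3*, -0.89 to 0.073 for *Orm2* and -0.26 to 0.74 for *Lcn2* for time in KO livers. No paired analysis was possible because no mouse number occurs in more than 1 group.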
